A study of Rattus norvegicus with 10 samples.

Results

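The receptors of the colony-stimulating factors and the ligand Csf1 were examined in splenic M2 macrophages of rats. The 6 genes were Csf1r, Csf2ra, Csf2rb, Csf3r, Il3ra and Csf1, which were chosen by name, and the only measured value in the choice was their presence in the deposited table. All 6 of the 6 listed genes were among its 9003 genes, which keeps a gene only when at least 1 library reached 1 CPM, a read count scaled to library size. Csf1 was the member nearest to that limit, with 0.938 CPM in its lowest library, 4.59 CPM in its highest and at least 1 CPM in 9 of 10 libraries, and the other 5 were far above it in every library. The members were picked with earlier results of these data known, so their p-values are not independent evidence of a difference.

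Macrophages of rats of the strain WKY /Ncrj fell into 4 groups. Control macrophages (n = 2) came from rats under physiological conditions, and GN macrophages (n = 2) from rats with glomerulonephritis that received no adipose-derived mesenchymal stem cells (ASCs). EV+ (n = 3) and EV- macrophages (n = 3) came from rats with the same nephritis given human ASCs, which had been stained with the membrane dye DiD. EV+ cells carried the dye and EV- cells did not, so the dye is the sorting gate, and no group of nephritic rats without ASCs was split by it. The nephritis was induced with the mouse monoclonal antibody TF78 against the rat glomerular basement membrane. The nephritis model used female rats. Age and day of collection are not in the labels of the libraries, and the labels do not say which libraries came from the same rat.

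Colony-stimulating factor 1 (M-CSF, gene Csf1) binds CSF1R, a receptor tyrosine kinase on which most tissue macrophages depend for survival and renewal. GM-CSF, IL-3 and IL-5 instead use cytokine receptors with a private alpha chain (CSF2RA for GM-CSF, IL3RA for IL-3) and a common beta chain, CSF2RB, which carries the Janus kinase JAK2 and signals largely through STAT5. G-CSF binds CSF3R, which pairs with itself and is best known from neutrophils, though monocytes and macrophages also carry it. In the spleen, macrophages clear blood cells and store iron, and these receptors are among the genes that the myeloid transcription factors PU.1 (gene Spi1) and the C/EBP family are known to switch on.

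To show what the receptor genes share near their starts, the RefSeq promoter windows (assembly GRCr8, 300 bases each) were searched on both strands for GAGGAAG, a core that PU.1 is known to bind. Windows were given for 4 of the 6 members. Csf1r, Csf2ra and Csf3r held 1 match each, Il3ra held 0, and Csf2rb and Csf1 had no entry. Of all 33469 RefSeq promoters 12.4% held the motif, and of the 7292 promoters of genes that were measured 13.7%. The 3 matches are printed with 11 bases on either side, with the motif in capitals, and the Csf1r match lies on the strand opposite to the gene. The first motif base lay at -230 from the gene start in Csf1r (chr18:56834138-56834166, plus strand), at -41 in Csf2ra (chr14:118141-118169, minus strand) and at -160 in Csf3r (chr5:143583049-143583077, plus strand). A match is a description of the letters, not a bound site.
Csf1r: agattctgcctCTTCCTCtggtgtgtgtg
Csf2ra: aacccaaagatGAGGAAGtgggagcaagg
Csf3r: ctccttcctgaGAGGAAGgggctgtctat

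The 10 libraries held between 19270515 and 26617093 reads on the genes of the table, and no pair of replicates was so alike as to be a copy. The macrophage markers Cd68 (1163 to 1466 CPM), Adgre1 (1025 to 1491 CPM) and Lyz2 were high in every library, whereas Cd163 and Mrc1, which often mark M2 macrophages, stayed at or below 1.81 CPM. Of the 10 macrophage markers 8 were in the table, but not Marco and Mertk. The sum of the 8 was 18575 to 19378 CPM in control, 22923 to 23705 in GN, 21290 to 24067 in EV+ and 21403 to 23313 in EV- libraries. NK and T cell markers (8 of 10 in the table, of the defining ones only Cd3e) summed to at most 30.9 CPM outside EV-, but to 541, 81.6 and 40.9 CPM in EV- replicates 1, 2 and 3. B cell (4 of 6) markers summed to 319 to 461 CPM, mostly Cd22. Stromal and endothelial markers (3 of 8) summed to 159 to 213 CPM, mostly Pecam1, and dendritic cell markers (6 of 8) to 1011 to 2110 CPM, mostly Irf7. These are bulk samples, so fewer cells of a type and less RNA per cell cannot be told apart.

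Csf2rb, the common beta chain, was the member that set the macrophages of ASC-treated rats apart from those of untreated rats, whether or not they carried the dye. It held 142 and 103 CPM in the control libraries, 136 and 141 CPM in GN, 227, 257 and 237 CPM in EV+, and 221, 249 and 237 CPM in EV-. All 6 EV+ and EV- libraries lay above all 4 control and GN libraries, which was so for 1.36% of the 9003 genes. EV+ and EV- libraries may share rats, so these 6 may not be 6 independent samples. The means (± SD) were 122 ± 28.0 CPM for the 2 control, 139 ± 3.82 for the 2 GN, 240.3 ± 15.3 for the 3 EV+ and 235 ± 13.8 for the 3 EV- libraries. The order was therefore control, GN, EV- and EV+, in which control and GN overlapped and EV- and EV+ overlapped, and the single step in between was larger than the spread of the libraries.

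**Figure D1:**
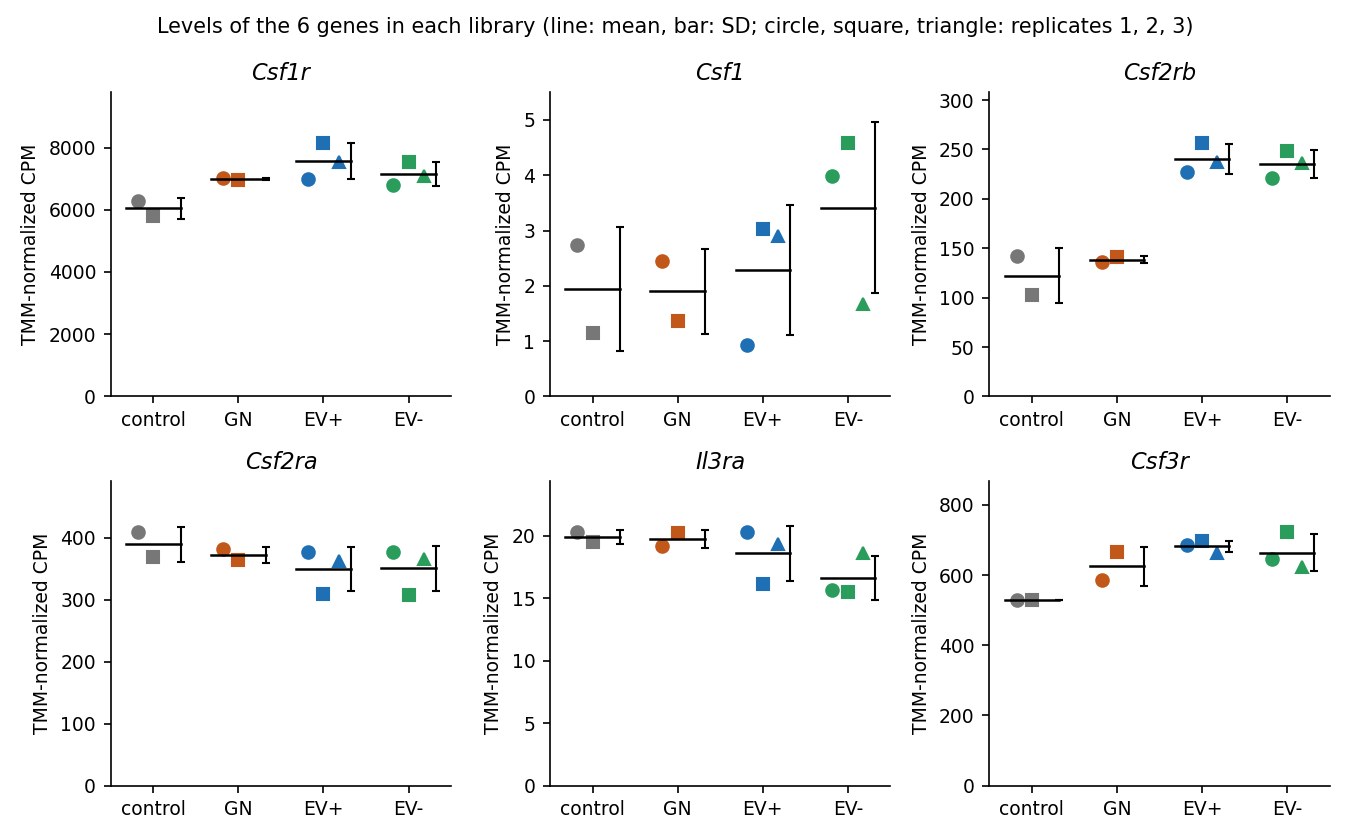
TMM-normalized CPM (y axis, from 0) of the 6 members in each of the 10 libraries by group (x axis), with the group mean as a line and the SD as a bar, and with circles, squares and triangles for replicates 1, 2 and 3. Csf2rb lies at 103 to 142 CPM in control and GN and at 221 to 257 CPM in EV+ and EV-, while Csf2ra lies between 308 and 409 CPM throughout.

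Against GN macrophages, Csf2rb rose 1.73-fold in EV+ and 1.70-fold in EV- macrophages. On the log2(CPM + 1) scale, the rise was 0.79 in EV+ (SE 0.11, 95% interval 0.54 to 1.03, adjusted p = 0.0156 by limma over all genes) and 0.76 in EV- (SE 0.11, interval 0.51 to 1.01, adjusted p = 0.0107). It was the 1 member called in each of these comparisons, both of which use the same 2 GN libraries. Their EV+ and EV- libraries may also come from the same rats. At an adjusted p under 0.1, limma called 0.122% of all genes in EV+ against GN (0.0666% as higher) and 0.378% in EV- against GN (0.0555% as higher). The edgeR quasi-likelihood and likelihood-ratio tests and DESeq2 also called Csf2rb alone among the members, where they called 0.1%, 0.478% and 0.539% of the genes to which each gave an adjusted p for EV+ (7603 genes for DESeq2) and 0.4%, 1.4% and 1.26% for EV-. By p-value Csf2rb ranked 4 of 9003 genes for EV+ and 10 for EV-. A limma fit without a trend of variance with expression level called 0 and 6 of all 9003 genes for EV+ and EV-. There the adjusted p of Csf2rb became 0.21 for EV+ and 0.171 for EV-. Without GN replicate 1 it became 0.352 for EV+ and 0.19 for EV-, and without GN replicate 2 it became 0.135 and 0.109, although the log2 difference stayed between 0.72 and 0.83 in every one of the 10 fits that left out a library.

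Against control macrophages, Csf2rb rose 1.96-fold in EV+ (log2 difference 0.98, SE 0.11, adjusted p = 0.000252 by limma) and 1.92-fold in EV- (0.95, SE 0.11, adjusted p = 0.000375). These calls held with each library left out, with adjusted p at most 0.00303 for EV+ and 0.00487 for EV-. Between EV+ and EV- macrophages the difference was 0.03 with an interval of -0.19 to 0.25 (adjusted p = 1 by limma). Nephritis alone gave 0.20 (interval -0.07 to 0.47, adjusted p = 0.658), a value that turned to -0.04 without control replicate 2, the library with the lowest Csf2rb.

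Csf2ra, the alpha chain that gives the GM-CSF receptor its ligand, did not share this pattern. It held 409 and 369 CPM in control, 382 and 363 CPM in GN, 376, 309.6 and 362 CPM in EV+, and 377, 308 and 365 CPM in EV-. The groups overlapped in every comparison, with means of 389 ± 28.2, 372 ± 13.1, 349 ± 35.0 and 350.1 ± 36.8 CPM in that order. The largest difference was -0.16 on the log2 scale for EV+ against control (interval -0.38 to 0.06, adjusted p = 0.502 by limma), and against GN it was -0.10 for EV+ (interval -0.32 to 0.12) and -0.09 for EV- (interval -0.31 to 0.12).

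The ratio of Csf2rb to Csf2ra CPM within a library therefore differed between the groups mainly through Csf2rb. It was 0.348 and 0.278 in control, 0.356 and 0.389 in GN, 0.603, 0.830 and 0.656 in EV+, and 0.586, 0.807 and 0.648 in EV- libraries. The lowest ratio of any EV+ or EV- library was above the highest of any control or GN library. The ratio is in CPM, which does not correct for the length of the transcripts, so it does not give the number of beta chain transcripts per alpha chain transcript. Replicates 2 of EV+ and EV- had the highest ratio of their groups, with the highest Csf2rb and the lowest Csf2ra.

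**Figure D2:**
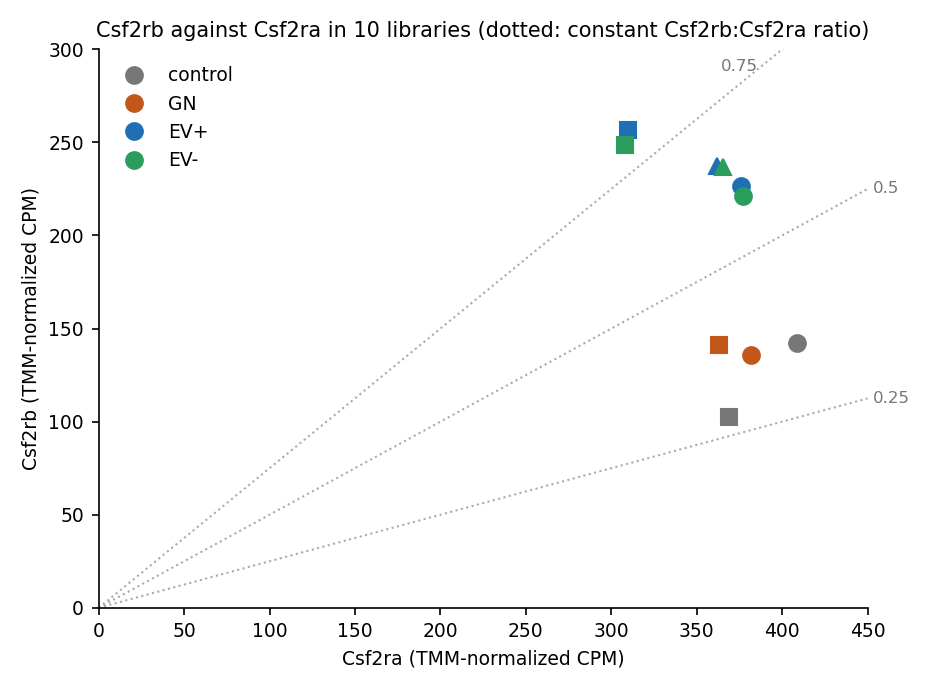
Csf2rb against Csf2ra in the 10 libraries, both axes in TMM-normalized CPM from 0, with colors for groups, circles, squares and triangles for replicates 1, 2 and 3, and dotted lines for constant ratios. The control and GN libraries lie at ratios of 0.278 to 0.389 and the EV+ and EV- libraries at 0.586 to 0.830.

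Il3ra, the alpha chain of the IL-3 receptor, was low and was called in no comparison. It held 20.3 and 19.5 CPM in control, 19.2 and 20.2 CPM in GN, 20.3, 16.1 and 19.4 CPM in EV+, and 15.6, 15.5 and 18.6 CPM in EV-, from 304 to 537 reads per library. The 3 EV- libraries lay below all control and GN libraries, while EV+ overlapped with every other group. EV- against GN gave -0.24 (interval -0.55 to 0.07, adjusted p = 0.749 by limma) and EV- against control -0.25 (interval -0.57 to 0.06, adjusted p = 0.511). IL3RA is a marker of basophils and plasmacytoid dendritic cells. Of the 6 basophil and mast cell markers only Hdc was in the table, at 0 to 1.46 CPM, and none of the 3 defining ones (Mcpt8, Fcer1a, Ms4a2) was. Of the 3 defining plasmacytoid markers Siglech was not in the table, while Tcf4 (4.81 to 7.06 CPM) and Irf7 (968 to 2072 CPM), which is also an interferon-induced gene, were, and the part of such cells was not tested. In the RefSeq annotation, Il3ra lies directly beside Asmtl and Csf2ra lies 124 bases from Crlf2. The library kit keeps no strand, so reads at these edges cannot be assigned to a strand.

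Csf1r, the receptor that macrophages depend on, stood at rank 7 of all 9003 genes by mean CPM. It held 6288 and 5800.4 CPM in control, 7019 and 6966 CPM in GN, 6997, 8155 and 7547 CPM in EV+, and 6809, 7544 and 7099 CPM in EV-. Both control libraries lay below the other 8, and those 8 overlapped between groups. The means (± SD) were 6044 ± 345 CPM for the control, 6993 ± 37.2 for the GN, 7567 ± 579 for the EV+ and 7151 ± 371 for the EV- libraries.

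Csf1r rose 1.25-fold in EV+ against control macrophages (0.32 on the log2 scale, SE 0.08, adjusted p = 0.0643 by limma). The call was lost without control replicate 1 (adjusted p = 0.142), control replicate 2 (0.461), GN replicate 1 (0.113), GN replicate 2 (0.114) or EV+ replicate 3 (0.183), without the intensity trend (0.188) and with only control and EV+ in the fit (0.267). EV- against control gave 0.24 (interval 0.06 to 0.42, adjusted p = 0.2) and GN against control 0.21 (interval 0.02 to 0.41, unadjusted p = 0.0353, adjusted p = 0.417, limma). Against GN the differences were 0.11 in EV+ (interval -0.07 to 0.29) and 0.03 in EV- (interval -0.15 to 0.21). The macrophage markers listed above were also lowest in the 2 control libraries, mostly through Lyz2, and their part in the Csf1r difference was not tested.

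Csf1, the ligand of CSF1R, rested on 24 to 90 reads per library. It held 2.73 and 1.15 CPM in control, 2.45 and 1.36 CPM in GN, 0.938, 3.03 and 2.90 CPM in EV+, and 3.98, 4.59 and 1.67 CPM in EV-. Every pair of groups overlapped, and the SD was 40.5% to 57.4% of the mean in each group. No comparison called it, and the intervals were wide, from -0.28 to 1.41 for EV- against GN and from -0.71 to 0.98 for EV+ against GN. With this spread and depth, differences within those intervals remain compatible with the data.

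Csf3r, the G-CSF receptor, was higher in the macrophages of ASC-treated rats than in control macrophages. It held 529 and 528 CPM in control, 586 and 665 CPM in GN, 685, 697 and 664 CPM in EV+, and 646, 723 and 623 CPM in EV-. Both control libraries lay below the other 8, while GN, EV+ and EV- overlapped. The group means were 528 ± 0.573 CPM in control, 625 ± 55.7 in GN, 682 ± 16.8 in EV+ and 664 ± 52.2 in EV-.

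Against control, Csf3r rose 1.29-fold in EV+ (0.37, SE 0.08, adjusted p = 0.0268 by limma) and 1.26-fold in EV- (0.33, SE 0.08, adjusted p = 0.06). Without control replicate 1 or 2 the adjusted p became 0.145 and 0.192 for EV+, and 0.24 and 0.304 for EV-. The EV- call was also lost without EV- replicate 1 (0.112) or EV- replicate 2 (0.17) and with only control and EV- in the fit (0.104). Without the intensity trend both calls were lost (0.141 for EV+ and 0.215 for EV-). GN against control gave 0.24 (interval 0.05 to 0.43, unadjusted p = 0.0156, adjusted p = 0.313, limma), and EV+ against GN gave 0.13 (interval -0.04 to 0.30). Neutrophils are rich in this receptor. Of 11 neutrophil markers 7 were in the table, without Mpo, Elane, Lcn2 and Ltf. Their summed level was 21.9 to 27.2 CPM in control, 24.8 to 25.4 in GN, 23.0 to 37.2 in EV+ and 21.7 to 33.7 in EV-, mostly S100a9 and Camp, and their part in the Csf3r values was not tested. EV+ replicate 2 and EV- replicate 2 had the highest Csf3r and the lowest neutrophil sums (23.0 and 21.7 CPM) of their groups. Replicates 1 and 3 of EV+ (33.7 and 37.2 CPM) and of EV- (33.7 and 33.1 CPM) had sums above both control libraries.

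**Figure D3:**
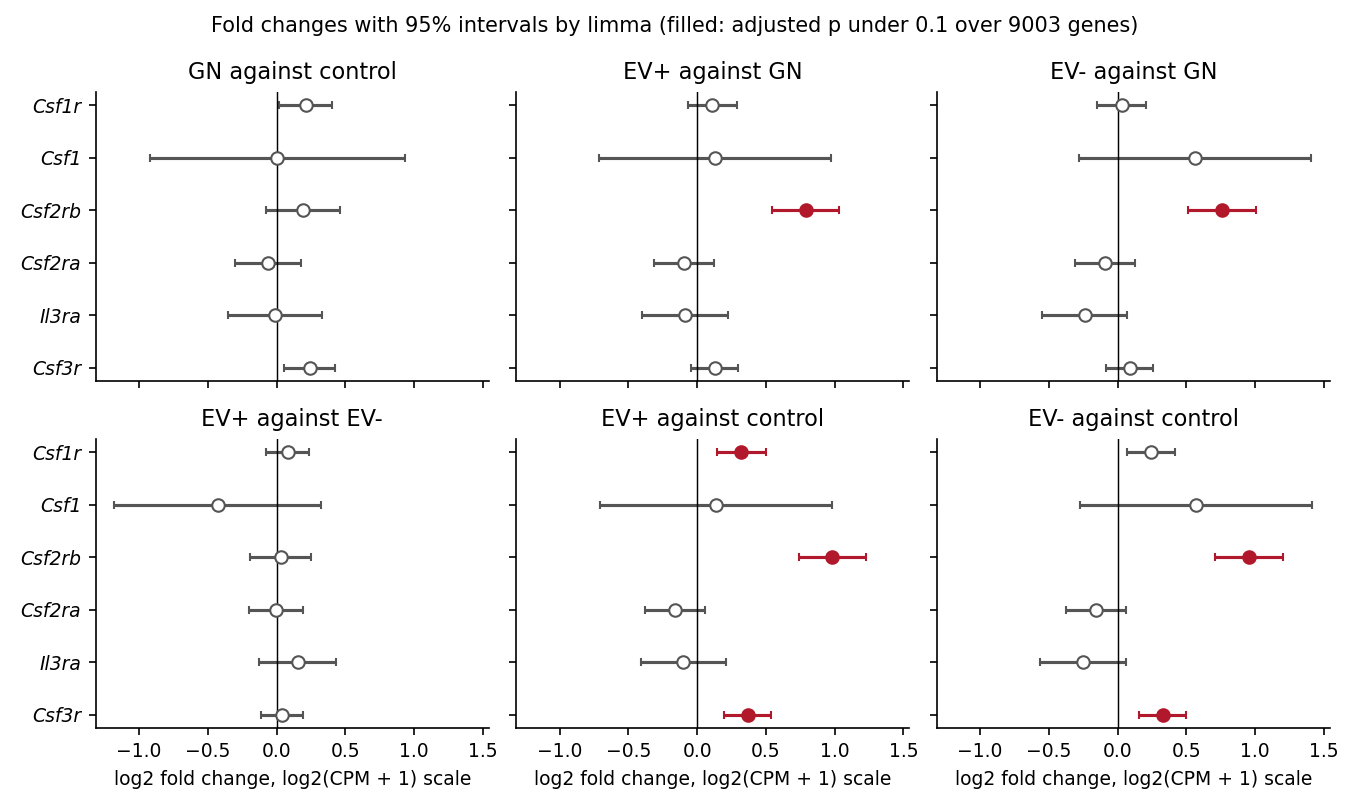
Log2 fold changes (x axis, log2(CPM + 1) scale) of the 6 members in 6 comparisons by limma, with 95% intervals as bars and filled red points for an adjusted p under 0.1 over 9003 genes. Csf2rb is the filled point against GN in EV+ (0.79) and EV- (0.76), and no point is filled for GN against control or EV+ against EV-.

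Counted over the 6 members, limma called 2 for any difference among the 4 groups, Csf2rb (adjusted p = 0.000261) and Csf3r (0.0946), where it called 2.57% of all genes. The Csf3r call among the 4 groups was fragile. In 11 of 18 alternatives Csf2rb alone was called, among them the edgeR quasi-likelihood test (Csf3r adjusted p = 0.118), the fit without the intensity trend (0.345) and 8 of the 10 fits that left out a library (0.106 to 0.468). For EV+ against control it called 3 (Csf1r, Csf2rb and Csf3r), all higher, against 3.63% of all genes, or 1.82% as higher. For EV- against control it called 2 (Csf2rb and Csf3r), both higher, against 2.84% of all genes, or 1.29% as higher. The edgeR quasi-likelihood test, the edgeR likelihood-ratio test and DESeq2 on the recovered reads called these same 3 for EV+ against control, where they called 3.34%, 5.73% and 6% of the genes. For EV- against control they called 2.6%, 4.93% and 5.27% of the genes, and the same 2 members, to which DESeq2 added Csf1r.

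Nephritis alone moved no member past the threshold. For GN against control limma called 0 of 6 members and 1.75% of all genes, with 2 members (Csf1r and Csf3r) at an unadjusted p under 0.05. By limma p-value, Csf3r ranked 449 and Csf1r 762 of 9003 genes there, and the share of all genes under 0.05 was not counted. The 2 edgeR tests and DESeq2 called 0 members (against 1.63%, 3.24% and 3.27% of the genes). Csf1r and Csf3r were higher in GN without overlap of the libraries, which with 2 libraries a group was so, in either direction, for 43.9% of all genes. In EV+ against GN 1 member did not overlap (23.0% of all genes), and in EV- against GN 2 did not (25.4%), Csf2rb higher and Il3ra lower. Against control 3 members did not overlap in EV+ (30.5%), and 4 in EV- (29.1%), where Il3ra was again the lower one.

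Dye-positive and dye-negative macrophages of the treated rats did not differ detectably in any member. For EV+ against EV- limma called 0 of 6 members and 0.0222% of all genes, 0 members had an unadjusted p under 0.05, and the 2 edgeR tests and DESeq2 called 0 (against 0.0222%, 0.633% and 0.378% of the genes). In no member were the groups free of overlap, against 8.91% of all genes. The 95% intervals were -0.08 to 0.24 for Csf1r, -0.20 to 0.19 for Csf2ra, -0.19 to 0.25 for Csf2rb, -0.11 to 0.19 for Csf3r and -0.13 to 0.43 for Il3ra on the log2 scale, so a change of the size seen for Csf2rb against GN lies outside all 5 of them. For Csf1 the interval was -1.19 to 0.33.

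Same-numbered EV+ and EV- libraries deviated together across the genes of the table (correlations 0.203, 0.295 and 0.122). The value of pair 3 was within the range seen between libraries of different rats. Csf2rb and Csf2ra were close within these pairs. Csf2rb was higher in EV+ by 2.60%, 3.31% and 0.248% in pairs 1, 2 and 3, and Csf1r by 2.77%, 8.10% and 6.31%. Csf2ra differed by -0.255%, 0.485% and -0.950%, although it ranged from 308 to 377 CPM among the EV- libraries. Il3ra was higher in EV+ by 29.6%, 4.06% and 3.88%, so that its difference lay mostly in pair 1. Csf3r was higher in EV+ in pairs 1 and 3 (6.0% and 6.48%) and lower in pair 2 (-3.60%). Csf1, with few reads, was far apart within the pairs, at -76.5%, -33.9% and 73.3% in EV+ relative to EV-. With the replicate number as a block, EV+ against EV- still gave 0 members called, beside 5 of all genes (2 without the block).

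**Figure D4:**
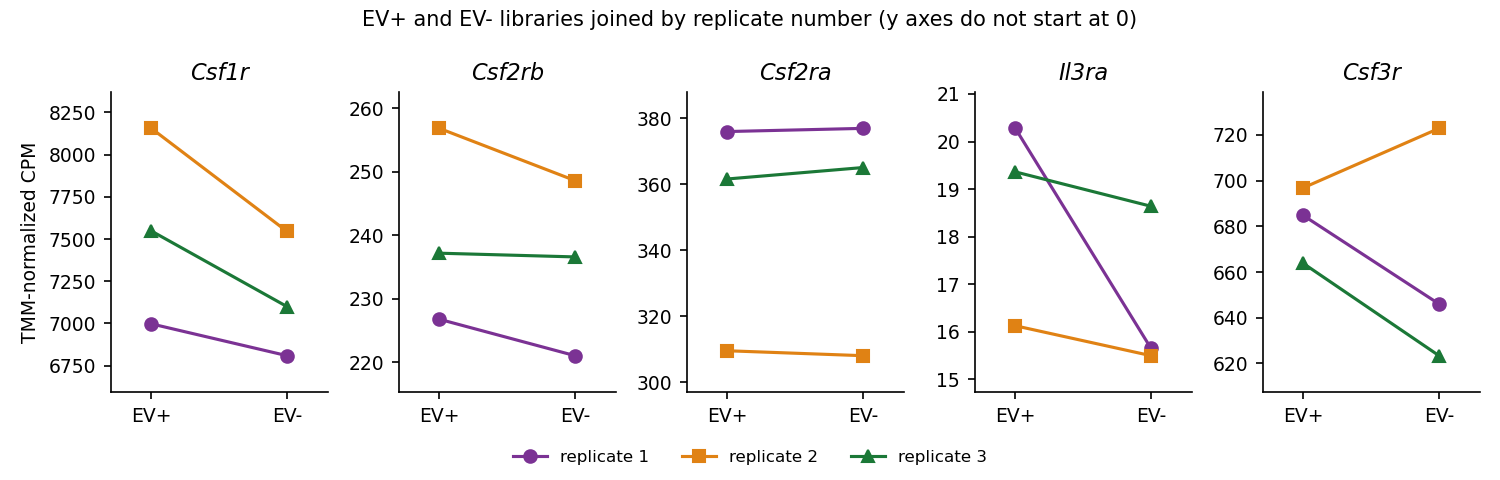
TMM-normalized CPM (y axes, which do not start at 0) of 5 members in EV+ and EV- libraries, with a line joining the libraries of the same replicate number. For Csf2ra the lines are nearly flat (within 0.950%) and keep their order, while for Il3ra pair 1 has the steepest line (29.6%).

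Over all 10 libraries the members formed opposite patterns, given here as a description, since the points share their libraries and scaling and the group differences above. Pearson's r of log2(CPM + 1) was 0.81 between Csf1r and Csf2rb (Spearman's rho 0.83), 0.85 between Csf1r and Csf3r (0.67) and 0.81 between Csf2rb and Csf3r (0.76). Csf2ra went with Il3ra (r = 0.69, rho 0.49) and against Csf1r (-0.70, rho -0.70) and Csf3r (-0.70, rho -0.72). Its r with its own partner chain Csf2rb was -0.54 (rho -0.68).

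Genes with the most similar pattern to each member were sought among the 7193 genes with a mean of at least 5 CPM. For Csf2rb they were Cab39 (r = 0.97, rho 0.89), a scaffold of the kinase LKB1, the glucuronosyltransferase Ugt1a7c (0.97, 0.87) and the vesicle transport adaptor Rab11fip1 (0.96, 0.93). Cab39 held 427 CPM in control, 473 in GN, 557 in EV+ and 556 in EV- on average. For Csf1r they were the death-associated kinase Dapk1 (0.97, 0.89), the glycogen phosphorylase Pygl (0.97, 0.92) and Tbc1d2b (0.97, 0.89), and for Csf3r the complement C3a receptor C3ar1 (0.95, 0.99), the phosphatase subunit Ppp2ca (0.94, 0.92) and the chaperonin subunit Cct8 (0.94, 0.95). For Csf2ra they were the polyamine acetyltransferase Sat1 (0.94, 0.83), Ifi35 (0.94, 0.65) and the heme oxygenase Hmox1 (0.93, 0.83). For Il3ra they were the TLR4 cofactor Ly96 (0.90, 0.88), the actin nucleation subunit Arpc4 (0.90, 0.77) and Smim7 (0.89, 0.60). Each r is over 10 libraries.

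Of the other ligands and related receptors most were not in the table. Of 12 listed genes only Flt3, Flt3lg and Pdgfrb were present, and limma called 0 of 3 in every comparison, with 0 at an unadjusted p under 0.05 and 0 by the 2 edgeR tests and DESeq2. Csf2, Csf3, Il3, Il34 and Il5, the cytokines of these receptors, Il5ra, the third alpha chain that pairs with CSF2RB, and Kit, Kitlg and Pdgfra were not in the table, so their levels were not analysed here. Flt3, a receptor tyrosine kinase of the same class as CSF1R, held at most 3.50 CPM.

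Signal carriers below the receptors were present but limma called none of them in any of the 6 pairwise comparisons. All 7 of 7 genes of the JAK-STAT branch were in the table, among them Jak2, the kinase bound to CSF2RB (147 ± 17.1 CPM in control, 131 ± 3.30 in GN, 146 ± 18.2 in EV+, 146 ± 1.04 in EV-), and Stat5b (126 ± 8.13, 114 ± 4.68, 133 ± 9.95 and 128 ± 16.2 CPM). In none of the 6 comparisons did more than 1 of the 7 have an unadjusted p under 0.05. The edgeR tests called 0 of them, and DESeq2 called Jak1 for EV+ against control (448 ± 33.5 against 373 ± 17.8 CPM). Their median log2 difference was 0.15 in EV+ against GN and 0.07 in EV- against GN, beside -0.01 and 0.00 over all genes. Of 25 adaptors and kinases of CSF1R, 22 were in the table (not Gab1, Pik3cg and Src). At an unadjusted p under 0.05 there were 4 of them in EV+ against GN and 4 in EV+ against control, and fewer in the other comparisons. The share of all genes under 0.05 was not counted, so neither these counts nor those of the JAK-STAT branch have a background. The edgeR quasi-likelihood test called 0, while the likelihood-ratio test and DESeq2 called Pik3ca, a catalytic subunit of PI3 kinase, for EV+ against control (48.6 ± 3.34 against 38.1 ± 0.442 CPM). The median of the 22 was 0.03 in EV+ against GN and 0.01 in EV+ against control. The Src family kinase Lyn, at 1176 to 1432 CPM, was among them.

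Of 17 negative regulators 16 were in the table (not Cbl), and limma called 1 of them, for EV- against control, where it called 2.84% of all genes. Dok2, an adaptor that dampens tyrosine kinase signals, was higher in EV- against control (6.48 ± 6.21 against 0.784 ± 0.291 CPM, log2 difference 1.77, SE 0.46, adjusted p = 0.0776). GN held 3.51 ± 0.169 CPM (1.35 against control, adjusted p = 0.331 by limma, though the edgeR likelihood-ratio test and DESeq2 called it) and EV+ 2.26 ± 0.95 CPM. The EV- value came largely from EV- replicate 1 at 13.7 CPM, which also had the highest NK and T cell marker sum (541 CPM), and without it the difference was 1.14 (adjusted p = 0.103). The call was also lost without control replicate 1 (0.32) or 2 (0.272), GN replicate 1 or 2 (0.119 each) and EV+ replicate 3 (0.119). In at least 1 limma alternative other than leaving out a library the Dok2 call was lost too, where the adjusted p reached 0.208. The part of NK and T cell transcripts was not tested. Cish, a feedback inhibitor that STAT5 is known to switch on, held at most 2.72 CPM in any library and was not called by limma, though the edgeR likelihood-ratio test and DESeq2 called it in EV+ and EV- against control (1.29 ± 0.536 and 1.55 ± 1.14 against 0.154 ± 0.218 CPM). GN held 1.2 ± 1.08 CPM of it. These 2 tests also called Sh2b3, an adaptor that restrains JAK2, in EV+ and EV- against control (207 ± 15.4 and 209.0 ± 17.6 against 167 ± 11.6 CPM, with 181 ± 6.62 in GN), and Ubash3b in EV- by both and in EV+ by the likelihood-ratio test alone.

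Among the 11 of 11 survival and growth targets, limma called 3 genes, all lower in the macrophages of treated rats than in control. It called 3 of 11 for EV+ against control (beside 3.63% of all genes) and 2 of 11, Pim1 and Bcl2a1, for EV- (beside 2.84%). Ccnd2 was higher in EV- and was called by the edgeR likelihood-ratio test and DESeq2 against control and by DESeq2 against GN. It held 4.86 ± 5.22 CPM in EV- (highest library 10.9), 0.70 ± 0.699 in control and 0.643 ± 0.43 in GN. Pim1, a kinase gene known as a target of STAT5, fell to 44.2 ± 2.51 CPM in EV+ and 43.9 ± 4.10 in EV- from 91.5 ± 15.9 in control, with 64.8 ± 9.09 in GN. Its log2 difference was -1.03 in both (SE 0.13, adjusted p = 0.000534 and 0.000538), and no left-out library raised the adjusted p above 0.0173. Against GN, Pim1 gave -0.54 in EV+ and -0.55 in EV-, which limma and the edgeR quasi-likelihood test did not call, but which the likelihood-ratio test and DESeq2 did. GN against control already gave -0.49 (adjusted p = 0.156 by limma), which the likelihood-ratio test and DESeq2 called. All 6 EV+ and EV- libraries (39.4 to 47.4 CPM) lay below all 4 others (58.3 to 103 CPM), and the share of all genes in that order was not counted. Csf2rb had the opposite order, but its control and GN libraries overlapped. For Pim1 the GN libraries (58.3 to 71.2 CPM) lay below both control libraries (80.3 to 103 CPM).

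Bcl2a1 and Mcl1, inhibitors of apoptosis of the Bcl2 family, moved less. Bcl2a1 fell by 0.32 in EV+ (adjusted p = 0.0605 by limma) and by 0.38 in EV- (0.0305) against control, from 1358 ± 0.690 CPM to 1092 ± 73.6 and 1047 ± 82.4 CPM, with 1192 ± 1.93 CPM in GN. Without control replicate 1 or 2 these became 0.215 and 0.284 for EV+, and 0.167 and 0.199 for EV-, and the EV+ call also ended without GN replicate 1 or 2 (0.10 each) or EV+ replicate 2 (0.11) or 3 (0.107). Mcl1 fell by 0.31 in EV+ against control (adjusted p = 0.0826), from 413 ± 49.5 to 333 ± 11.7 CPM. GN was as low, at 325 ± 19.9 CPM (-0.34 against control, adjusted p = 0.116 by limma, called by the edgeR likelihood-ratio test and DESeq2), and EV+ against GN gave 0.04 (adjusted p = 0.959). The EV+ call ended without control replicate 1 (0.434), GN replicate 1 (0.113) or 2 (0.114), any EV+ replicate (0.136 to 0.148) or EV- replicate 1 (0.113). These calls were also lost in at least 1 limma alternative other than leaving out a library. There the adjusted p reached 0.204 (EV+) and 0.155 (EV-) for Bcl2a1 and 0.234 (EV+) for Mcl1. The median of the 11 genes was -0.13 in EV+ and -0.24 in EV- against control, beside 0.00 and 0.01 over all genes.

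All 14 of 14 transcription factors listed for CSF receptor genes were in the table. In the pairwise comparisons limma called 1 of them, lower in EV+ than in control, where it called 3.63% of all genes. Cebpd, a C/EBP family factor of myeloid cells, fell by 0.38 in EV+ against control, from 176 ± 2.24 to 135 ± 2.60 CPM (adjusted p = 0.0154, or 0.152 without control replicate 2). GN held 142 ± 4.84 CPM (-0.31 against control, adjusted p = 0.108 by limma, called by the edgeR likelihood-ratio test and DESeq2) and EV- 151 ± 5.97 CPM (-0.22, adjusted p = 0.195). EV+ against GN gave -0.07 (adjusted p = 0.912). The edgeR quasi-likelihood test called the same gene for EV+ against control, and the likelihood-ratio test and DESeq2 called 3 there (Cebpa, Cebpb and Cebpd). For EV- against control the likelihood-ratio test called Cebpa (lower) and Gfi1 (higher), and DESeq2 added Cebpb and Cebpd (both lower). Gfi1 held 1.44 ± 1.87 CPM in EV- and 0 in control.

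Spi1, which encodes PU.1, held 910 to 1034 CPM in all libraries. Its log2 difference was between -0.06 and 0.01 in the 6 comparisons, and it was called in none. The median of the 14 factors was -0.16 both in EV+ and in EV- against control and -0.05 and -0.04 against GN. The red pulp macrophage markers (4 of 5, mostly Hmox1) summed to 222 to 275 CPM in control, 211 to 219 in GN, 153 to 195 in EV+ and 145 to 226 in EV-. Spic, Vcam1 and Slc40a1 each held at most 8.74 CPM in any library, and Cd5l was not in the table. The part of these markers in the values above was not tested.

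**Figure D5:**
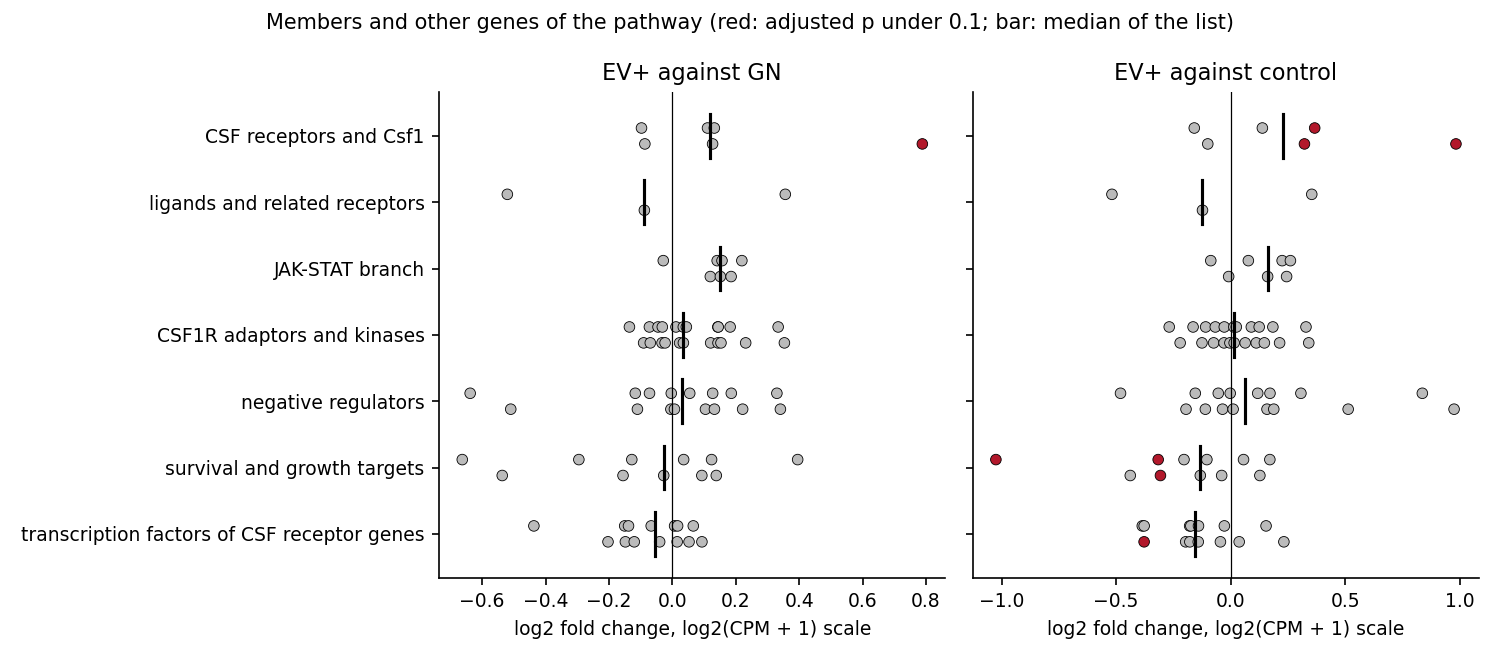
Log2 fold changes (x axis, log2(CPM + 1) scale) of the members and of the genes of 6 pathway lists (rows) for EV+ against GN (left) and EV+ against control (right), with red points for an adjusted p under 0.1 and a bar at the median of each list. On the left Csf2rb is the only red point (0.79). On the right the members Csf1r, Csf2rb and Csf3r are red and higher, and the red points of the lists (Pim1, Bcl2a1, Mcl1 and Cebpd) are lower.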

How the data were processed

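RNA of 10 libraries of sorted splenic M2 macrophages (control and GN, n = 2 each, EV+ and EV-, n = 3 each) had been amplified with SMART-Seq v4, which keeps no strand, and sequenced paired-end. Groups came from the sample labels, and the study calls the libraries biological replicates without saying which share a rat. Per the labels and the study's methods, the authors aligned reads to rn6 with STAR (version 2.5.3), counted them on RefSeq genes with HTSeq (version 0.6.0), dropped genes under 1 CPM in all samples and applied TMM normalization in edgeR. The deposited signal is thus TMM-normalized CPM of 9003 genes. The authors' scaling was undone to whole reads for 100% of values (tolerance 0.01). Gene symbols turned into dates numbered 18 and could not be named. The library totals of recovered reads were 19270515 to 26617093. The 95% intervals are those of limma, from the residual spread between libraries, and reads carry no molecular identifiers.

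The main test was limma (version 3.58.1, R version 4.3.3) on log2(CPM + 1) with the 4 groups, 6 residual degrees of freedom and an intensity trend, called at a Benjamini-Hochberg adjusted p under 0.1 over all 9003 genes. Fold changes are on that scale and understate the change of low genes such as Csf1 and Dok2. Alternatives were edgeR (version 4.0.16, quasi-likelihood and likelihood-ratio) and DESeq2 (version 1.42.0) on the recovered reads, a pseudocount of 0.1, no trend, a threshold of 0.05, a filter of 1 CPM in 2 or more libraries, only the 2 groups compared, the replicate number as a block and each library left out. Replicates differed by a chi-square of 13.4 to 45.4 per degree of freedom, so none was a copy. Same-numbered EV+ and EV- libraries had correlated deviations (0.203, 0.295 and 0.122), so their numbers were taken to pair them, from the data and not from the labels. The main fit did not use this pairing and treated all libraries as independent. Its intervals and p-values therefore do not account for rats that EV+ and EV- libraries may share. Control and GN gave 0.088 for the same number. Control and EV+ libraries, which come from different rats, gave -0.106 and -0.141 for the same number and up to 0.141 across numbers. Pair 3 (0.122) thus lay within the range of libraries from different rats. The procedures were tested on simulated data. Promoter windows came from RefSeq tables of GRCr8, whose coordinates are not those of rn6.

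The members, the 6 pathway lists and the marker lists were chosen with earlier results of these data known. Named genes were the members, list genes called at an adjusted p under 0.1, and for each member with a mean of at least 5 CPM the 3 genes with the highest Pearson correlation. Further genes of the lists were named as examples after their values were seen. Some genes of the pathway lists are not reported here and were left out of the lists' counts and medians.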

Additional observations from a re-analysis of the deposited data

How the results depend on the processing

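The number of members called stayed within 1.5 times its value in 16 of 19 alternatives each for EV+ against GN, EV- against GN and EV+ against control, in 12 of 19 for EV- against control, but in 7 of 18 for the test among the 4 groups. The cause of the exceptions was not tested. For EV+ against control the number also counts as within 1.5 times where it fell from 3 to 2. This was so at a threshold of 0.05, with only these 2 groups and without EV+ replicate 3, among others. Without the intensity trend it became 0 from 1 for EV+ and for EV- against GN, 1 from 3 for EV+ against control, 1 from 2 for EV- against control and 1 from 2 among the 4 groups. It became 1 from 2 for EV- against control at a threshold of 0.05 and with only these 2 groups, and 1 from 2 for the test among all 4 groups at that threshold and by the edgeR quasi-likelihood test. With each library left out in turn it ranged from 0 to 1 for EV+ and EV- against GN, from 1 to 3 for EV+ against control, from 1 to 3 for EV- against control (3 without EV+ replicate 2, which added Csf1r at an adjusted p of 0.0877), and from 1 to 2 among the 4 groups. Between GN and control, and between EV+ and EV-, it stayed 0 in every fit.

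With the replicate number as a block, the members called numbered 2 among the 4 groups, and 1 each for EV+ and EV- against GN. They numbered 3 and 2 for EV+ and EV- against control and 0 for the others, so the block changed no member call. This block also joined control and GN libraries to EV+ and EV- libraries of the same number, which came from other rats. It can therefore account for shared rats only between EV+ and EV-. Over all genes, the block fit called 295 among the 4 groups (231 without the block). It called 30 and 53 for EV+ and EV- against GN (11 and 34 without the block). Against control it called 379 and 290 (327 and 256 without the block). It called 205 for GN against control (158 without the block) and 5 for EV+ against EV- (2 without the block). The fit of EV+ and EV- alone with the block, added after seeing the data, also called 0 members, but 49 of all genes.

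Signs reversed only for differences that were not called. Csf1 in GN against control was 0.01 by limma but -0.0375 and -0.0359 by the edgeR tests and -0.0397 by DESeq2. Leaving out libraries moved GN against control from -0.39 to 0.40 for Csf1, -0.14 to 0.0123 for Csf2ra, -0.0382 to 0.43 for Csf2rb and -0.0486 to 0.0223 for Il3ra. EV+ against GN moved from -0.14 to 0.48 for Csf1 and -0.15 to 0.00714 for Il3ra, EV- against GN from -0.0083 to 0.0657 for Csf1r and -0.00438 to 0.18 for Csf3r, EV+ against control from -0.26 to 0.54 for Csf1, and EV+ against EV- from -0.0926 to 0.0804 for Csf2ra, -0.0198 to 0.0696 for Csf2rb and -0.00362 to 0.10 for Csf3r. A lone library in an arm was assumed to vary like the other groups. With 2 control and 2 GN libraries, any value against them rests on those few samples, and the depth limits Csf1 most.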
